A study of Mus musculus with 25 samples.

Results

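The posterior palate at E14.5 was compared between its lateral and its medial compartment. Of the 25 RNA-Seq libraries in the series, 6 entered the comparison, 3 of the posterior lateral palate and 3 of the posterior medial palate. All genes with at least 5 RPKM (the reads of a gene relative to the length of its transcript and to the size of the library) in at least 3 of these 6 libraries were tested, which left 10324 of the 37406 genes in the deposited table. The embryos of both groups were wild type, of the CD1 strain and at E14.5, and they carried no other allele and had no treatment in the labels. The compartments were cut from sections by laser capture microdissection. How many embryos stood behind a library is not given in the sources used here, and the methods describe the replicates as biological. The oral and nasal compartments of the posterior palate and the lateral and medial compartments of the anterior palate served only as reference points.

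The secondary palate forms from paired shelves of cranial neural crest mesenchyme covered by epithelium. The shelves grow down beside the tongue, lift above it and fuse in the midline, where the medial edge epithelium between them is then lost. The lateral compartment is the side of the shelf next to the maxilla, and the medial compartment holds the tissue around the seam. Bone forms in the anterior (hard) palate, whereas muscle enters the posterior (soft) palate. Fibroblast growth factors, TGF-beta family ligands, hedgehog, WNT and Notch signals all pass between the mesenchyme and the epithelium during these steps.

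Genes with higher expression in the lateral compartment were, among others, Ltbp2, Fgf10, Egfr, Wisp1, Npnt, Tgfb2, Jag1, Hes1, Slit3, Robo2 and Crabp1. Those with higher expression in the medial compartment were, among others, Krt14, Krt17, Ppbp, Acta2, Pla2g7, Pax3, Tbx22 and Tbx2. At the study thresholds (moderated test P under 0.05 and fold change, FC, over 2), 116 genes or 1.12% of those tested were called. Of these, 64 (0.62% of those tested) were higher in lateral and 52 (0.504%) were higher in medial. An FC over 3 was reached by 50 of the 116, 32 of them higher in lateral and 18 higher in medial. Of all genes tested, 6.62% had lateral and medial values that were entirely apart. Among the 116 genes it was 112, which was largely set by the thresholds, since they used these same values. None of these calls held after Benjamini-Hochberg adjustment over all genes tested in limma. The count of genes with an adjusted p under 0.05 was 0, and the 116 had adjusted p-values from 0.450 to 0.957 in limma. An unadjusted P under 0.05 was seen for 159 genes (1.54%), fewer than that threshold would pass if no gene differed. Every value below that is described as higher or lower thus rests on the unadjusted thresholds, unless a fit over more libraries is named.

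Medial replicate 2 stood apart from the other libraries. It listed 12935 genes above 0, against 16330 to 20605 in the other 24 libraries of the series, and 358 of the tested genes were listed at 0 in it, against 2 to 8 in the other 5 libraries compared. Its correlation across genes with the other medial libraries was 0.536 and 0.638, and it was 0.610 to 0.621 with the lateral ones, whereas all other pairs lay between 0.798 and 0.934. The implied depth was 5.93, 2.38 and 2.33 M reads in lateral replicates 1 to 3 and 5.45, 2.35 and 3.86 M in medial replicates 1 to 3, so its depth was like that of lateral replicates 2 and 3. The median SD of a gene was 0.27 in lateral and 0.62 in medial on the log2 scale, and 0.30 between the other pair of medial libraries. Each result below was therefore also computed without it. All 116 genes kept their direction, which could not have changed for the 112 whose lateral and medial values were apart. Of the 116, 85 stayed at the thresholds. In all, 154 genes (1.49%) were called, 91 higher in lateral and 63 higher in medial. The lateral and medial libraries shared no sequencing run, so run and compartment cannot be told apart within the 6 libraries.

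Markers of palate mesenchyme were present in every library. The summed level of 12 such genes, among them Prrx1, Twist1, Pdgfra, Osr2 and Lhx8, was 1413, 1383 and 1342 RPKM in lateral and 1424, 1995 and 1156 RPKM in medial libraries, and 0 of the 12 were called. Genes that mark the posterior palate (Meox2, Barx1, Tbx22, Sim2, Dlx1 and Gdf10) summed to 215 to 352 RPKM in lateral and 317 to 491 RPKM in medial libraries, against 11.9 to 29.1 RPKM in the anterior lateral and 19.3 to 26.0 RPKM in the anterior medial ones. Msx1, which marks the anterior palate, did not pass 0.785 RPKM in any of the 6 libraries. Shox2, another anterior marker, was uneven within the lateral group, at 2.73, 39.4 and 5.83 RPKM, and was not called. Of the 6 anterior markers 3 were tested, and Pax3 was called.

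Values below are listed in the order of replicates 1, 2 and 3, and log2 differences with their SE are lateral minus medial on the log2(RPKM + 0.1) scale, from limma. A gene is named as called where it passed the unadjusted P and the FC thresholds. Each count of called list members stands against the 1.12% of all genes tested that were called. Of the 116 called genes, 34 reached 5 RPKM in 1 compartment alone, so a difference was built into their being tested. For lists that hold such genes the 1.12% is too low a comparison. The lists were written with earlier results of these data known, so these counts are not independent evidence. The adjusted p was 0.450 for Fgf10, Egfr, Wisp1, Krt14 and Pla2g7, 0.557 for Ppbp, 0.854 for Pax3 and 0.957 for each of the other called genes named. Chromosome positions are those of the deposited table, for which the submitters' processing notes name the build mm9.

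**Figure D1:**
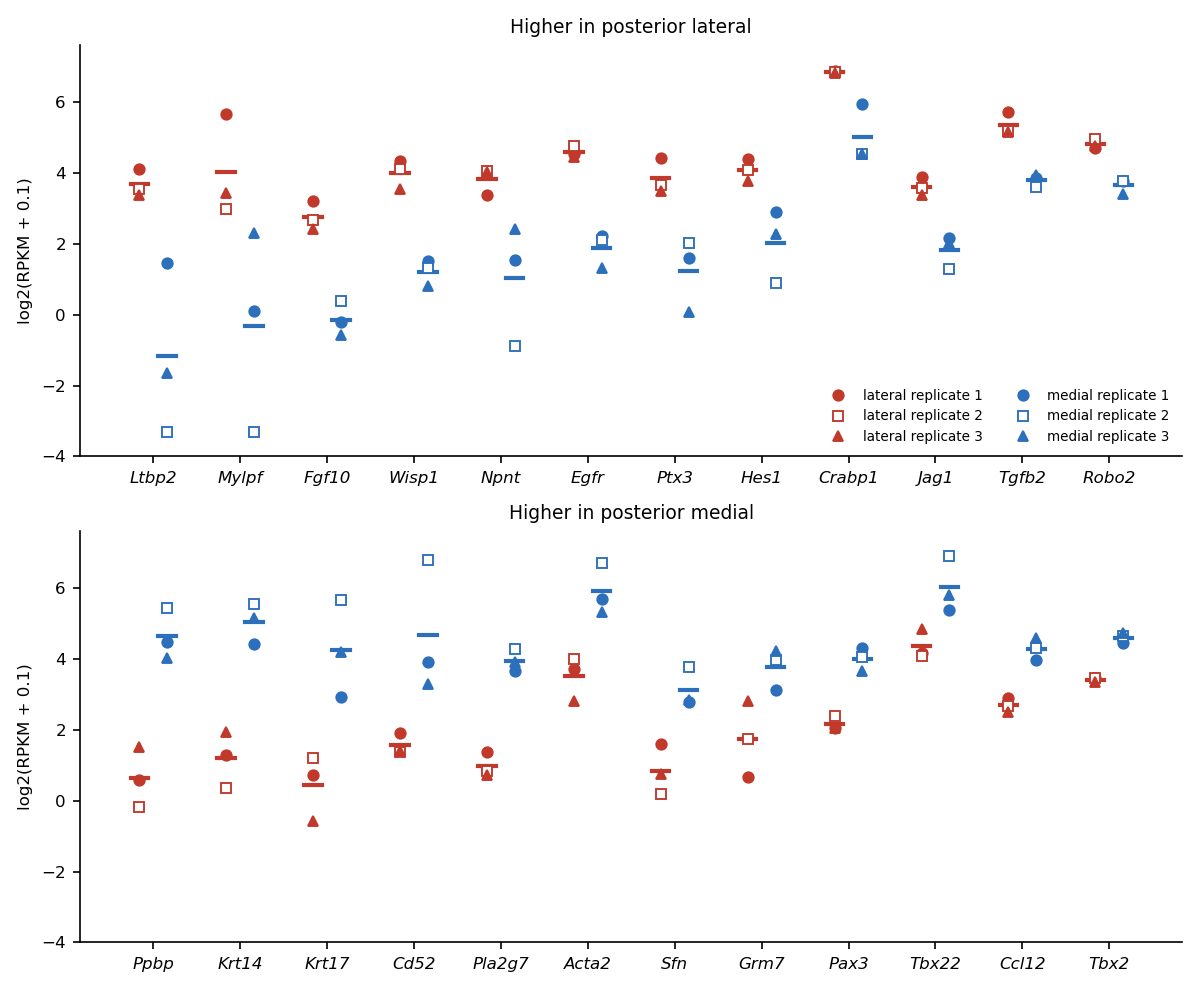
Level of 24 called genes in each of the 6 libraries, as log2(RPKM + 0.1), with lateral in red, medial in blue, 1 symbol per replicate (replicate 2 open) and a bar at the group mean. In all 24 genes the 3 lateral points and the 3 medial points do not overlap, and medial replicate 2 lies lowest of its group for Ltbp2, Mylpf and Npnt and highest for Ppbp, Krt17 and Cd52.

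Among the genes for FGF and EGF signaling, Fgf10 and Egfr were higher in the lateral compartment. Fgf10 (gene ID 14165, chromosome 13, 119503506 to 119581380) encodes a mesenchymal ligand that signals to the overlying epithelium. Its level was 9.23, 6.24 and 5.26 RPKM in lateral and 0.763, 1.21 and 0.567 RPKM in medial libraries. Every lateral library was thus above 5 RPKM and every medial one near 1 RPKM, with an FC of 7.49 (log2 2.91, SE 0.38), a call that was lost with a mean-variance trend in limma. Egfr (gene ID 13649, chromosome 11, 16652206 to 16813910), the EGF receptor, was measured at 23.0, 27.0 and 21.8 RPKM in lateral and 4.57, 4.25 and 2.41 RPKM in medial libraries. The groups were far apart, with an FC of 6.46 (log2 2.69, SE 0.33). Nrg3, a neuregulin ligand for the related receptor ERBB4, went the other way, with 1.85, 6.03 and 4.03 RPKM in lateral and 10.9, 7.24 and 6.86 RPKM in medial libraries. Its FC was 2.25 toward medial, and the call was lost at a pseudocount of 1 (log2 -0.98) and at 0.01 (log2 -1.19). The remaining members of these families were not called. Of the FGF list of 29 ligands, receptors and response genes, 15 were tested and 1 was called. Fgf18 ranged from 7.62 to 93.6 RPKM among the lateral libraries alone. Fgf8 was listed at 0 in all 6, and the FGF response genes Dusp6 and Spry1 had log2 differences of -0.06 and -0.37. Of the EGF list of 17 genes, 5 were tested and 2 were called, against 1.12% of all genes tested. Egfr and Fgf10 reached 5 RPKM in lateral libraries alone, so a difference was built into their being tested. Areg, Ereg and Tgfa stayed below 1 RPKM in every library.

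In the Notch pathway the ligand gene Jag1 and the target gene Hes1 were higher in lateral. Notch receptors on a cell are activated by ligands of the Jagged and Delta families on its neighbour, and the HES and HEY repressors are the usual targets. Jag1 (gene ID 16449, chromosome 2, 136907194 to 136942067) was at 14.6, 11.8 and 10.4 RPKM in lateral and 4.43, 2.33 and 4.01 RPKM in medial libraries, an FC of 3.43 (log2 1.78, SE 0.34). Hes1 (gene ID 15205, chromosome 16, 30065443 to 30067882) was at 20.9, 16.9 and 13.5 RPKM in lateral and 7.31, 1.76 and 4.78 RPKM in medial libraries, an FC of 4.16 (log2 2.06, SE 0.54). For both genes the lowest lateral library was above the highest medial one, and without medial replicate 2 the log2 differences were 1.503 and 1.49. Of the list of 24 Notch genes, 13 were tested and these 2 were the ones called, against 1.12% of all genes tested. Jag1 reached 5 RPKM in lateral libraries alone, so a difference was built into its being tested. Among the receptors, Notch1, Notch2 and Notch3 overlapped between the groups, with log2 differences of 0.26, 0.78 and 0.07. The target gene Hey1 had a log2 difference of 2.61 with medial replicate 2 listed at 0 and was not called, and it was 0.75 without that library. The median log2 difference of the 13 was 0.30, against 0.05 over all genes tested.

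TGF-beta ligands are secreted in a latent form that is held in the matrix by latent TGF-beta binding proteins and fibrillins. Ltbp2 (gene ID 16997, chromosome 12, 86124162 to 86217445), which encodes a matrix protein of the latent TGF-beta binding protein family, had the largest log2 difference of the called genes. Its level was 17.3, 11.6 and 10.3 RPKM in lateral and 2.64, 0 and 0.220 RPKM in medial libraries. The smallest lateral value was well above the largest medial one, and the FC of 28.9 (log2 4.85, SE 1.15) rests in part on the library listed at 0. Without that library the log2 difference was 3.78, and with all 6 it was 3.07 at a pseudocount of 1 and 6.13 at 0.01. Tgfb2 (gene ID 21808, chromosome 1, 188447065 to 188529871), the ligand, was at 52.3, 36.5 and 35.7 RPKM in lateral and 14.48, 12.1 and 15.3 RPKM in medial libraries, an FC of 2.93 (log2 1.55, SE 0.29). Tgfb3, the ligand best known from the medial edge epithelium, was not called, with 23.3, 39.0 and 28.5 RPKM in lateral and 14.4, 21.7 and 22.0 RPKM in medial libraries. Its log2 difference was 0.64, although the groups did not overlap.

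Of the list of 21 TGF-beta ligands, receptors and latency proteins, 19 were tested and 2 were called, against 1.12% of all genes tested. Ltbp2 reached 5 RPKM in lateral libraries alone, so a difference was built into its being tested. A higher mean in lateral was seen for 18 of the 19, against 54.3% of all genes tested, and their median log2 difference was 0.63, against 0.05 over all genes. With quantile normalization 17 of the 19 were higher in lateral. Without medial replicate 2 it was 15 of the 19, and the median was 0.27, against -0.04 over all genes. Ltbp4 and Ltbp1 had log2 differences of 0.88 and 1.30. The receptors Tgfbr1 and Tgfbr2 differed by 0.05 and 0.08, and Tgfbi by -0.23.

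Matrix and matricellular genes gave 8 calls, each higher in lateral, of 41 tested in a list of 46, where 1.12% of all genes tested were called in either direction. Npnt (gene ID 114249, chromosome 3, 132545659 to 132613255) encodes nephronectin, an integrin ligand of basement membranes. It was at 10.4, 16.5 and 16.2 RPKM in lateral and 2.79, 0.446 and 5.30 RPKM in medial libraries, and its FC was 6.92 (log2 2.79, SE 0.84). Without medial replicate 2 its log2 difference was 1.84. Wisp1 (gene ID 22402, chromosome 15, 66722955 to 66754761), a secreted CCN protein induced by WNT signaling, was at 20.2, 17.1 and 11.6 RPKM in lateral and 2.76, 2.37 and 1.65 RPKM in medial libraries. The groups were apart, with an FC of 6.91 (log2 2.79, SE 0.35). Thbs2, which encodes thrombospondin 2, was at 47.1, 70.2 and 56.2 RPKM in lateral and 23.0, 19.7 and 29.8 RPKM in medial libraries, an FC of 2.39 (log2 1.26, SE 0.30). Ptx3, a pentraxin of hyaluronan-rich matrix, had an FC of 6.11, with 21.5, 12.4 and 11.1 RPKM against 2.96, 3.98 and 0.960 RPKM. The collagen gene Col14a1, the small proteoglycan gene Fmod, Smoc2 and the protease gene Adamts6 made up the rest, with FC from 2.27 to 6.15. Part of the count of 8 was built in. Wisp1, Ptx3 and Col14a1 reached 5 RPKM in lateral libraries alone. Npnt, Thbs2 and Wisp1 had been named by the study on these libraries, and the list was written with earlier results known. The abundant fibrillar collagens were not called. Col1a1, Col1a2 and Col3a1 had log2 differences of 0.09, 0.24 and -0.15. The median log2 difference over the 41 was 0.17, against 0.05 over all genes tested, and 27 of them had a higher mean in lateral, against 54.3% of all genes tested.

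**Figure D2:**
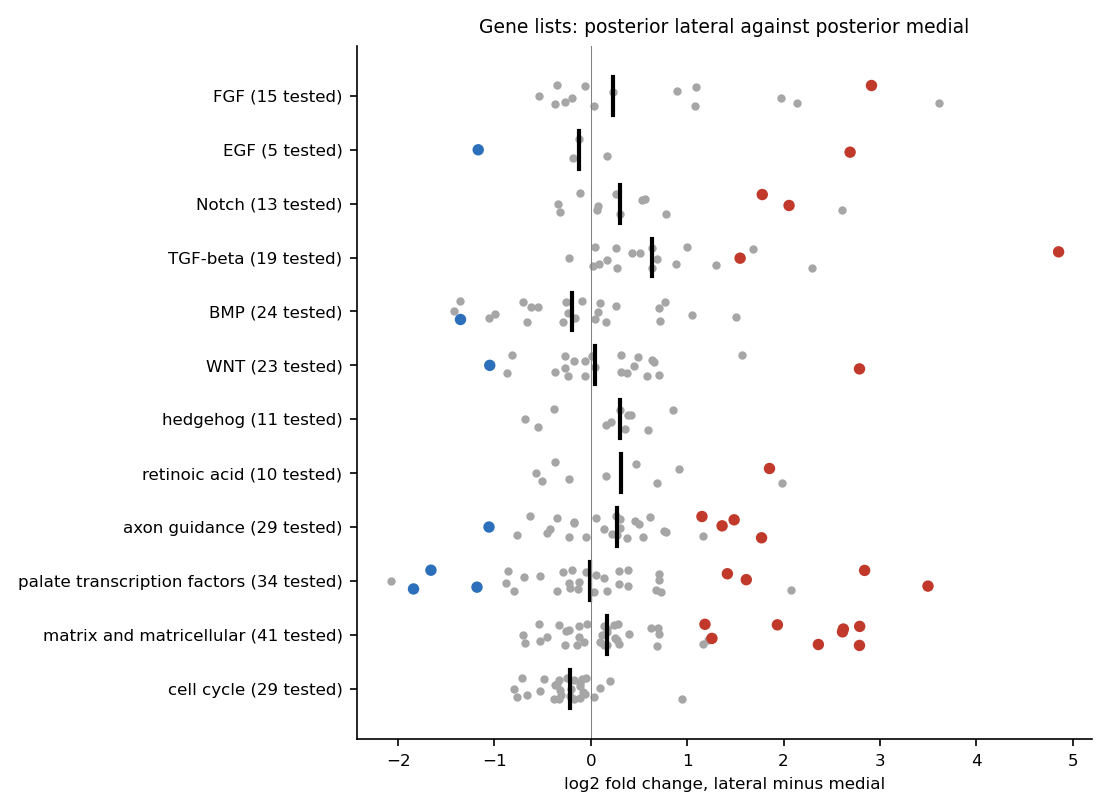
Log2 difference, lateral minus medial, of every tested member of 12 gene lists, with a black bar at the list's median, grey for genes not called, red for those called higher in lateral and blue for those called higher in medial. The matrix list holds 8 red points and no blue one, and the cell cycle and hedgehog lists hold no coloured point.

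The WNT, BMP, hedgehog and retinoic acid lists gave few calls. Of 48 WNT genes, 23 were tested and 2 were called, Wisp1 (also in the matrix list) toward lateral and Frzb toward medial. Frzb (gene ID 20378, chromosome 2, 80252127 to 80287553), a secreted WNT antagonist, was at 14.6, 12.7 and 19.9 RPKM in lateral and 31.1, 33.5 and 31.8 RPKM in medial libraries, with an FC of 2.07 (log2 -1.05, SE 0.28). Axin2, a general WNT target, was also lower in every lateral library, at 16.8 to 19.1 RPKM against 26.5 to 41.1 RPKM, but with a log2 difference of -0.82 it did not reach an FC of 2. Of 32 BMP genes, 24 were tested and 1 was called, Scube1, a secreted EGF-like protein, with an FC of 2.57 toward medial. The BMP antagonist gene Cer1 missed the fold threshold, with a log2 difference of -0.99. Bmp2 and Bmp4 had log2 differences of -0.26 and 0.07. Of 20 hedgehog genes, 11 were tested and 0 were called. Gli1, a transcriptional target of the pathway, was at 5.97, 25.6 and 18.6 RPKM in lateral and 8.48, 13.3 and 4.204 RPKM in medial libraries, and the groups overlapped (log2 0.85). Shh itself did not pass the expression minimum. It was listed at 0 in lateral replicate 1 and was at 15.3 and 16.8 RPKM in lateral replicates 2 and 3, against 0.192, 0.957 and 0.486 RPKM in medial libraries, values that were singled out after they were seen.

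Crabp1 (gene ID 12903, chromosome 9, 54612615 to 54620916), which encodes a binding protein for retinoic acid in the cytoplasm, was the called member of the retinoic acid list, of 10 tested among 19. It was at 119, 115 and 114 RPKM in lateral, the tightest group of any gene named here, and at 62.2, 22.9 and 23.0 RPKM in medial libraries. Its FC was 3.61 (log2 1.85, SE 0.45). Its relative Crabp2 overlapped between the groups, with a log2 difference of -0.23, and Aldh1a2, which makes retinoic acid, did not pass the minimum. Agtr2, the type 2 angiotensin receptor gene, was at 143, 94.4 and 115 RPKM in lateral and 84.3, 34.4 and 89.4 RPKM in medial libraries. Its groups were apart, but its log2 difference of 0.86 was not called.

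Axon guidance molecules also steer vessels and migrating mesenchyme. Of 38 such genes, 29 were tested, 4 were called toward lateral and 1 toward medial, against 0.62% and 0.504% of all genes tested. Slit3, a secreted repellent, was at 26.0, 28.2 and 23.3 RPKM in lateral and 11.4, 9.06 and 9.53 RPKM in medial libraries, an FC of 2.57 (log2 1.36, SE 0.26). Robo2, a receptor for Slit proteins, was at 26.0, 31.1 and 27.3 RPKM in lateral and 13.6, 13.7 and 10.6 RPKM in medial libraries, an FC of 2.22 (log2 1.15, SE 0.26). Ligand and receptor thus lay on the same side, with no overlap in either. Nrp2, a receptor for class 3 semaphorins, had an FC of 2.80, with 28.4, 30.5 and 26.4 RPKM against 11.5, 8.32 and 10.6 RPKM. Slitrk4 had an FC of 3.42 toward lateral, and its relative Slitrk6 had an FC of 2.08 toward medial. The semaphorin gene Sema3a, which the table holds on more than 1 row and which was left out of the list for that reason, had an FC of 4.54 toward lateral on the row tested.

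Transcription factor genes split between the compartments. Of 54 with a role in the palate, 34 were tested, with 4 called toward lateral and 3 toward medial, against 0.62% and 0.504% of all genes tested. The median log2 difference of the 34 was -0.01. Pax3 (gene ID 18505, chromosome 1, 78097842 to 78193711), a paired-box factor of neural crest, was at 4.01, 5.16 and 4.09 RPKM in lateral and 19.7, 16.6 and 12.4 RPKM in medial libraries. Each medial library was above each lateral one, with an FC of 3.58 (log2 -1.84, SE 0.30). Tbx22, in which mutations cause X-linked cleft palate, was at 17.7, 17.0 and 28.8 RPKM in lateral and 41.4, 120 and 55.8 RPKM in medial libraries, an FC of 3.16 (log2 -1.66, SE 0.47). Tbx2 was at 10.9, 11.0 and 10.02 RPKM in lateral and 21.6, 24.8 and 26.4 RPKM in medial libraries, with little spread on either side, and its FC was 2.27. Osr1, an odd-skipped zinc finger gene, was higher in lateral, with 53.2, 48.1 and 29.6 RPKM against 26.9, 17.8 and 5.41 RPKM and an FC of 3.06 (log2 1.61, SE 0.63). Its relative Osr2 was not called (log2 -0.86). Ebf1, Eya1 and Dlx5 were the other lateral calls. Ebf1 was at 19.7, 18.4 and 17.6 RPKM in lateral and 7.92, 0.0744 and 3.11 RPKM in medial libraries, so that medial replicate 2 set much of its log2 difference of 3.50, which was 1.88 without it. Eya1 was at 9.90, 14.6 and 10.5 RPKM against 2.40, 8.81 and 3.57 RPKM. Dlx5 overlapped between the groups, with 4.202, 16.1 and 8.55 RPKM in lateral and 6.14, 0.303 and 0.553 RPKM in medial libraries.

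Keratins of basal and activated epithelium were among the largest medial differences. Krt14 (gene ID 16664, chromosome 11, 100064476 to 100068824) was at 2.35, 1.19 and 3.75 RPKM in lateral and 21.3, 47.2 and 35.4 RPKM in medial libraries, an FC of 14.4 (log2 -3.85, SE 0.51). Krt17 was at 1.56, 2.22 and 0.569 RPKM in lateral and 7.53, 50.4 and 18.3 RPKM in medial libraries, an FC of 14.0 (log2 -3.81, SE 0.79). Sfn, which encodes the epithelial 14-3-3 protein stratifin, was at 2.93, 1.04 and 1.60 RPKM in lateral and 6.81, 13.7 and 7.05 RPKM in medial libraries, an FC of 4.88 (log2 -2.29, SE 0.48). In each of the 3 genes the medial libraries lay above the lateral ones. All 3 stayed at the thresholds whichever library was left out. The whole list of 39 epithelial and periderm markers summed to 122, 128 and 92.4 RPKM in lateral and 177, 347 and 187 RPKM in medial libraries. The summed level was thus higher in medial with or without replicate 2. These sums include Krt14, Krt17 and Sfn, so they are not separate from the differences above. Of its 8 tested members, 3 were called, all toward medial, against 1.12% of all genes tested in either direction. These 3, Krt14, Krt17 and Sfn, reached 5 RPKM in medial libraries alone, so a difference was built into their being tested. With them included, 6 of the 8 had a higher mean in medial, against 45.7% of all genes tested, and 2 had a higher mean in lateral. The median log2 difference of the 8 was -0.95, against 0.05 over all genes tested. Without medial replicate 2 it was -0.63, against -0.04 over all genes. Krt15 and Perp overlapped between the groups, with log2 differences of -0.45 and -0.57. Among the defining markers, Epcam was at 2.62, 4.07 and 0.417 RPKM in lateral and 3.03, 10.7 and 5.91 RPKM in medial libraries, and Cldn3 was listed at 0 in all 6. The posterior oral and nasal compartments gave Krt14 levels of 6.19 to 15.4 RPKM and sums over the list of 112 to 126 and 107 to 185 RPKM. In these bulk samples more epithelial cells and more keratin RNA per cell cannot be told apart, and the part of epithelial cells in these differences was not tested.

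Ppbp (gene ID 57349, chromosome 5, 91197544 to 91199086), which encodes a chemokine of platelets, had the largest log2 difference toward medial. It was at 1.40, 0.777 and 2.78 RPKM in lateral and 22.3, 43.3 and 16.1 RPKM in medial libraries, an FC of 16.0 (log2 -4.004, SE 0.57). No other tested gene of platelets or red cells was called. Pf4, the neighbouring platelet chemokine gene, was at 23.5, 44.2 and 32.1 RPKM in lateral and 17.8, 81.9 and 41.8 RPKM in medial libraries, and Itga2b, the platelet integrin, did not pass 1.26 RPKM. The red cell and platelet list of 20 genes had 8 tested members, 1 of them called, and summed to 572 to 1024 RPKM in lateral and 931 to 1232 RPKM in medial libraries.

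Of the called genes whose position is given here, not all had a window in the RefSeq table. Among those with a window, in either direction, Ppbp and Tgfb2 had a TATA element in the 50 bases before the RefSeq start. The stretches before the start of these genes are therefore shown. They were chosen after the values were seen, and they run 5′ to 3′ on the strand of the gene in GRCm38.p6, not the build of the table. The 250 bases end at the base before the start, and capitals mark TATAAA in the last 50 bases and, in Ppbp, a CArG box, the element known to bind serum response factor.
Ppbp, chr5:90768268-90768517, plus strand: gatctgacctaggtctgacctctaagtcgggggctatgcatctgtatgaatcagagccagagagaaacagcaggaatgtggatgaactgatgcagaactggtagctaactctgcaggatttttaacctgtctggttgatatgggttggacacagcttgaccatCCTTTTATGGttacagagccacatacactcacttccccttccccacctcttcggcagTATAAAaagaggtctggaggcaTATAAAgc
Tgfb2, chr1:186705990-186706239, minus strand: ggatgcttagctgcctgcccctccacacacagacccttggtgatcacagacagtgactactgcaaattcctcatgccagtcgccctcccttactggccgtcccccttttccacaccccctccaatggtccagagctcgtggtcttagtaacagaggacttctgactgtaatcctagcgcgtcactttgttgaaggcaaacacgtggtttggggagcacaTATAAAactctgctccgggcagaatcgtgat

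TATAAA began 30 and 8 bases before the start in Ppbp and 31 bases before it in Tgfb2, and the CArG box began 87 bases before the start of Ppbp. Of the 116 called genes, 77 had a window in the RefSeq table. On either strand, TATAAA was found in the last 50 bases for 4 of these 77 (Abca1, Ccl12, Ppbp and Tgfb2), against 3.50% of all 32851 windows, and a CArG box in the 250 bases for Ppbp alone, against 1.47% of all windows. The CArG box was searched only in its strict form, CC and GG around A or T bases, so boxes that deviate from it were not counted. A match of letters is a description and shows no binding.

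Of the 18 macrophage and myeloid markers tested, Cd52 and Ccl12 were called, both toward medial. Cd52, a small surface protein of leukocytes, was at 3.69, 2.50 and 2.56 RPKM in lateral and 14.97, 110 and 9.77 RPKM in medial libraries, an FC of 8.54 (log2 -3.09, SE 0.90). Its groups were apart, and without medial replicate 2 the log2 difference was -2.04. Pla2g7 (gene ID 27226, chromosome 17, 43705400 to 43749150), a secreted phospholipase that breaks down platelet-activating factor, was at 2.51, 1.71 and 1.55 RPKM in lateral and 12.62, 19.4 and 15.01 RPKM in medial libraries. It had the smallest P of all called genes (FC 7.84, log2 -2.97, SE 0.32). The monocyte chemokine genes Ccl12 and Ccl7 had FC of 3.03 and 4.50 toward medial, and Srgn, a proteoglycan of secretory granules, had 5.31. Pla2g7, Ccl7 and Srgn were not members of the macrophage and myeloid list. Ccl2, which no list held and which was named after its values were seen, had an FC of 2.98. The list of 30 macrophage and myeloid markers summed to 207 to 322 RPKM in lateral and 349 to 581 RPKM in medial libraries. Of its 18 tested members, 17 had a higher mean in medial, under median centring and quantile normalization as well, against 45.7% of all genes tested. Without medial replicate 2 it was 15 of the 18, against 55.0% of all genes tested. Its defining members Csf1r and Aif1 had log2 differences of -0.57 and -0.74 and were not called, and Ptprc stayed below the minimum in 5 libraries. The part of macrophages in these differences was not tested.

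Acta2 (gene ID 11475, chromosome 19, 34314827 to 34329826), the smooth muscle actin gene, was at 12.9, 16.0 and 6.95 RPKM in lateral and 51.2, 105 and 40.3 RPKM in medial libraries. Every medial library was above 40 RPKM and every lateral one at or below 16.0 RPKM, an FC of 5.29 (log2 -2.40, SE 0.50). No other smooth muscle or pericyte gene was called. Of 20 such markers, 11 were tested and Acta2 was the 1 called, Tagln was at 4.57, 13.5 and 4.11 RPKM in lateral and 8.93, 5.91 and 12.7 RPKM in medial libraries, and Myl9 had a log2 difference of -0.04. The list summed to 248 to 313 RPKM in lateral and 300 to 398 RPKM in medial libraries, so the sums overlapped.

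Mylpf (gene ID 17907, chromosome 7, 134355122 to 134357801), a myosin light chain of fast skeletal muscle, was higher in lateral. It was at 50.9, 7.78 and 10.8 RPKM in lateral and 0.973, 0 and 4.80 RPKM in medial libraries. Lateral replicate 1 was far above the rest, and the FC of 20.3 (log2 4.34, SE 1.48) was no longer called without it (log2 3.52). The list of 30 skeletal muscle genes had 4 tested members, all with a higher mean in lateral, and summed to 350, 63.8 and 74.7 RPKM in lateral and 47.6, 21.3 and 32.5 RPKM in medial libraries. Of the regulators that define the lineage, Myod1 was at 2.45 RPKM in lateral replicate 1 and listed at 0 in the other 5 libraries, and Myog did not pass 0.851 RPKM. The part of muscle cells in Mylpf was not tested.

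**Figure D3:**
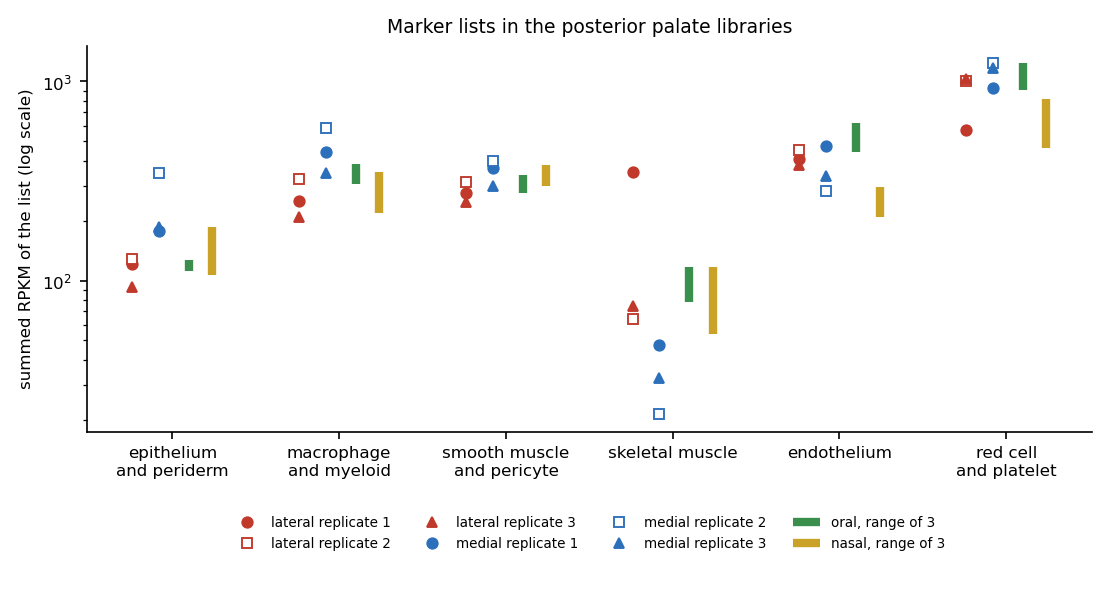
Summed RPKM of 6 cell type marker lists (log axis) in each posterior lateral (red) and posterior medial (blue) library, with replicate 2 open, and the range over the 3 posterior oral and the 3 posterior nasal libraries as green and yellow bars. Epithelial sums of 92.4 to 128 in lateral lie below 177 to 347 in medial, skeletal muscle sums are highest in lateral replicate 1 at 350, and the sums for smooth muscle, endothelium and red cells overlap. Each sum includes the called members of its list.

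The remaining lists gave few calls. Of 25 endothelial genes, 21 were tested and 1 was called, Tek, the angiopoietin receptor gene, with 13.3, 20.4 and 15.7 RPKM in lateral and 7.28, 2.47 and 7.21 RPKM in medial libraries (FC 3.15). The endothelial sums of 380 to 453 RPKM in lateral and 280 to 476 RPKM in medial libraries overlapped. Of 22 nerve and Schwann cell genes, 6 were tested and 0 were called. Of 22 osteoblast genes, 10 were tested and 2 were called toward lateral, Dlx5 (above) and Ptprv, a receptor-type phosphatase of osteoblasts, at 6.40, 26.3 and 20.3 RPKM against 3.06, 4.55 and 4.69 RPKM. Of 18 cartilage genes, 7 were tested and Fmod was called. Of 20 immediate-early and stress genes, 11 were tested and 0 were called. Of 30 cell cycle genes, 29 were tested and 0 were called, although 25 of the 29 had a higher mean in medial. Of all genes tested 45.7% had that direction. It was seen for 23 of the 29 with quantile normalization, against 47.6% of all genes, and for 28 without medial replicate 2, against 55.0% of all genes. Their median log2 difference was -0.21, against 0.05 over all genes tested, and Mki67 was at 144, 66.8 and 81.4 RPKM in lateral and 144, 125 and 85.4 RPKM in medial libraries. A list of 18 genes that were named for this comparison in the study had 11 called toward lateral and 5 toward medial, which is not independent evidence, since they were chosen on these libraries. In all, 42 of the 116 called genes were members of a list and 74 were in none.

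Further large differences lay outside the pathway and marker lists. The genes Pcdh11x, Foxp2 and Fam198a had FC of 9.61, 6.41 and 6.78 toward lateral. Pcdh11x, a protocadherin gene, was at 12.1, 6.37 and 9.37 RPKM in lateral and 2.55, 0 and 3.09 RPKM in medial libraries. Foxp2, a forkhead factor gene, was at 12.1, 9.42 and 8.47 RPKM in lateral and 6.83, 0.333 and 1.16 RPKM in medial libraries. In both, and in Fam198a, medial replicate 2 was the lowest library, and without it the log2 differences were 1.64, 1.76 and 1.71. Toward medial, Cdh7, a cadherin gene of neural crest, had an FC of 5.21, with 4.60, 0.331 and 2.45 RPKM against 14.4, 5.43 and 8.98 RPKM. Grm7, a metabotropic glutamate receptor gene, had an FC of 4.09, with 1.51, 3.25 and 6.93 RPKM against 8.68, 15.5 and 18.8 RPKM.

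The expression minimum itself could favour large differences. Of the 116 called genes, 34 reached 5 RPKM in the libraries of 1 compartment alone, as did 59 of all 10324 genes tested, so a difference was built into their passing. Among them were Egfr, Fgf10, Wisp1, Ltbp2, Ptx3, Jag1, Mylpf, Pcdh11x, Ptprv and Col14a1 toward lateral and Krt14, Krt17, Sfn, Ppbp, Pla2g7, Cd52 and Cdh7 toward medial. All 5 genes with the lowest adjusted p of 0.450 were thus of this kind. Medial replicate 2 was the lowest medial library for 42 of the 64 genes called toward lateral, against 49.1% of all genes tested, and the highest for 37 of the 52 called toward medial, against 36.3%.

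**Figure D4:**
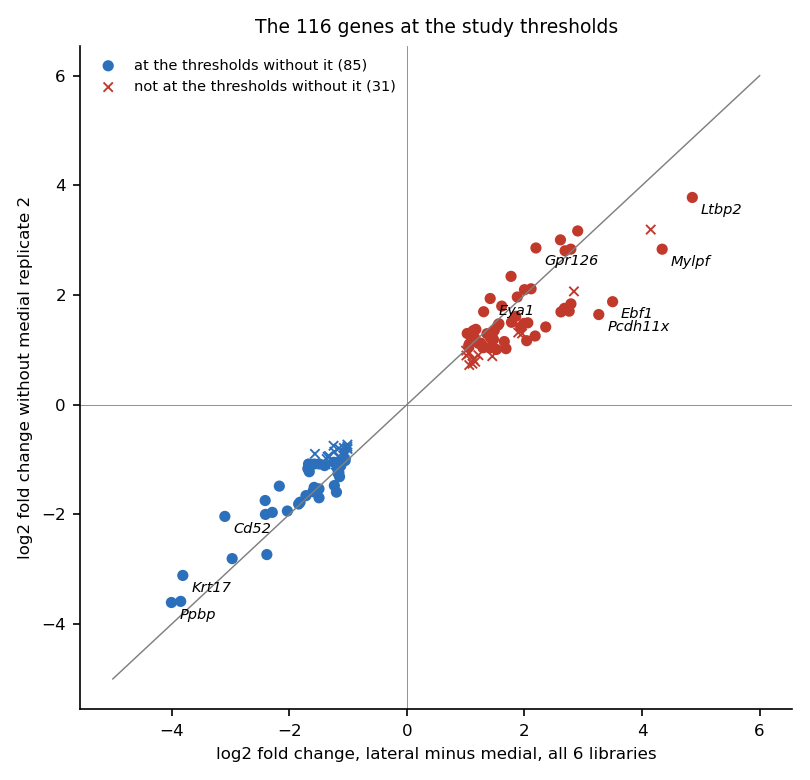
Log2 difference of the 116 called genes with all 6 libraries (horizontal axis) and without medial replicate 2 (vertical axis), red for higher in lateral and blue for higher in medial, with the line of equal values, circles for the 85 genes at the thresholds in both fits and crosses for the other 31. Every gene keeps its side of 0, as it must where the lateral and medial values are apart. Ltbp2, Mylpf, Ebf1 and Pcdh11x lie farthest below the line.

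Leaving out each of the 6 libraries in turn kept 42 of the 116 genes at both thresholds in every fit, among them Egfr, Fgf10, Wisp1, Ltbp2, Npnt, Jag1, Hes1, Tgfb2, Crabp1, Slit3, Robo2, Nrp2, Thbs2, Ptx3, Ppbp, Krt14, Krt17, Sfn, Pla2g7, Cd52, Acta2, Pax3, Tbx22, Tbx2, Ccl12 and Grm7. The calls of Foxp2, Fam198a and Fmod were lost without any lateral library or without medial replicate 3, with log2 differences of 2.53 to 2.79, 2.28 to 3.08 and 2.18 to 2.55 in those fits. Ebf1 lost its call in the same 4 fits (3.46 to 3.98), and Pcdh11x without any lateral library (3.05 to 3.51). Eya1 was called without medial replicate 2 alone (1.94), and was between 1.02 and 1.52 in the other 5 fits. Dlx5 was not called without lateral replicates 2 or 3 or medial replicates 2 or 3 (2.07 to 2.82). Osr1 was lost without lateral replicate 1 or 2 or medial replicate 3, where it was down to 0.95, and Col14a1 without lateral replicate 1 (2.09) or 3 (2.76). Cdh7 was lost without lateral replicates 2 or 3 or medial replicates 1 or 3 (-2.66 to -1.38), Ccl7 without lateral replicates 1 or 2 or medial replicate 3 (-2.31 to -1.62), Srgn without lateral replicate 2 (-1.89) and Frzb without lateral replicate 2 (-0.91). Nrg3 was lost without lateral replicates 1 or 3 or medial replicates 1 or 3 (-1.29 to -0.71), and Ptprv without lateral replicates 2 or 3 or medial replicate 1 (1.48 to 1.69). Slitrk4 was lost without lateral replicate 2 (1.59) or medial replicate 3 (1.51), Slitrk6 without lateral replicate 2 (-1.01), lateral replicate 3 (-0.99) or medial replicate 2 (-0.86), Scube1 without lateral replicate 2 (-1.25) or medial replicate 2 (-0.99), and Smoc2 without lateral replicate 1 (0.99). Mylpf was also lost without medial replicate 1 (4.55), and at a pseudocount of 0.01 the calls of Mylpf (5.49), Ebf1 (3.86) and Pcdh11x (4.39) were lost. With a mean-variance trend in limma the calls of Fgf10, Cdh7, Pcdh11x, Fam198a, Col14a1, Dlx5 and Nrg3 were lost, and with array weights those of Grm7, Frzb, Cdh7, Ccl7, Nrg3 and Slitrk6.

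A fit over all 25 libraries gives each gene a spread from 8 compartments in place of 2. It assumes the same spread in every compartment, whereas the median SD was 0.62 in posterior medial and 0.27 in posterior lateral libraries. Its p-values can thus be too small where the posterior medial libraries spread more than the others. In that fit the same posterior difference had an adjusted p under 0.05 in limma for 25 genes (0.242%), all of them among the 116. Of the 25, 12 had reached the minimum of 5 RPKM in 1 compartment alone, Egfr, Krt14, Wisp1, Fgf10, Pla2g7 and Ltbp2 among them, so a difference was built into their being tested. Egfr was lowest at 9.02e-06, followed by Krt14 and Wisp1 at 4.32e-05. Antxr1, Pax3, Bai3, Pla2g7, Tgfb2, Fgf10, Krt17, Ltbp2, Jag1, Acta2, Ptx3, Robo2, Tek and Ppbp were among the others. Without medial replicate 2, 20 genes (0.194%) passed over the other 24 libraries, 8 of them at the minimum in 1 compartment alone, and 15 genes passed in both fits. Egfr, Krt14, Wisp1, Pax3, Pla2g7, Tgfb2, Fgf10, Ltbp2, Ptx3 and Robo2 passed in both. Jag1, Krt17, Acta2 and Ppbp passed only with medial replicate 2, with adjusted p of 0.0586, 0.0586, 0.0978 and 0.125 without it. With the sequencing run as a term over the 25 libraries, 112 of the 116 genes kept their direction, 54 were at the study thresholds and 1 gene, Ltbp2, had an adjusted p under 0.05 in limma (0.0249). Egfr was at an adjusted p of 0.272, Wisp1 at 0.216 and Krt14, Fgf10, Pla2g7, Tgfb2 and Pax3 at 0.749 in that fit. The unadjusted calls of Ppbp, Jag1, Hes1, Ptx3, Robo2, Sfn, Acta2, Cd52, Srgn, Tbx22, Tbx2, Ccl12, Ccl7, Grm7, Cdh7, Mylpf, Pcdh11x, Scube1, Slitrk4, Eya1 and Adamts6 were lost with the run term, and Nrg3 changed sign.

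The same comparison in the anterior palate used other libraries. There too no run was shared between lateral and medial, 1 run held lateral libraries of both regions and another held medial libraries of both, so run and compartment cannot be told apart across the regions either. Of the 116 genes, 76 had the same direction there, against 55.4% of all genes tested in both. The study thresholds were met in the anterior palate by 13 of the 116 in the same direction, and by 7 in the opposite one. Egfr was at 10.5, 8.53 and 7.14 RPKM in anterior lateral and 2.32, 2.21 and 2.83 RPKM in anterior medial libraries, and Fgf10 at 6.53, 3.83 and 4.87 RPKM against 1.74, 1.27 and 0.472 RPKM. Krt14, Krt17 and Pla2g7 were likewise higher in medial in both palate regions, with anterior log2 differences of -2.15, -2.50 and -2.10, and Osr1 and Slitrk4 higher in lateral, with 2.24 and 2.12.

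Whether the posterior difference itself differed from the anterior one was tested as an interaction in limma over 11089 genes. A single gene passed, Thbs2, which is 0.00902% of those tested. An unadjusted P under 0.05 was seen for 373 genes (3.36%), again fewer than that threshold would pass if no gene differed. Thbs2 was higher in lateral in the posterior palate and higher in medial in the anterior palate, where it was at 15.8, 20.4 and 18.0 RPKM in lateral and 61.5, 57.2 and 50.6 RPKM in medial libraries. The posterior difference was 1.26, the anterior one was -1.64, and they differed by 2.90 (SE 0.31, adjusted p = 0.0296 in limma). This adjusted p was 0.0103 to 0.0241 without posterior lateral replicate 1 or posterior medial replicate 2 or 3, and 0.0577 to 0.188, and so above 0.05, when any of the other 9 libraries was left out. Tgfb2 had the next smallest P of the called genes, at 18.0, 20.5 and 22.9 RPKM in anterior lateral and 26.7, 27.9 and 21.9 RPKM in anterior medial libraries, and its difference of 1.87 did not pass (adjusted p = 0.168 in limma). Ptprv and Cdh7 had anterior differences of -2.15 and 4.40, opposite to their posterior ones, with adjusted p of 0.271 and 0.168 for the interaction in limma. Scube1 had an anterior difference of 0.75, and its interaction of -2.11 did not pass (adjusted p = 0.326 in limma). Pax3 was at 33.2 to 54.5 RPKM in all 6 anterior lateral and medial libraries, above every posterior value, and its interaction of -1.49 did not pass (adjusted p = 0.326 in limma).

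**Figure D5:**
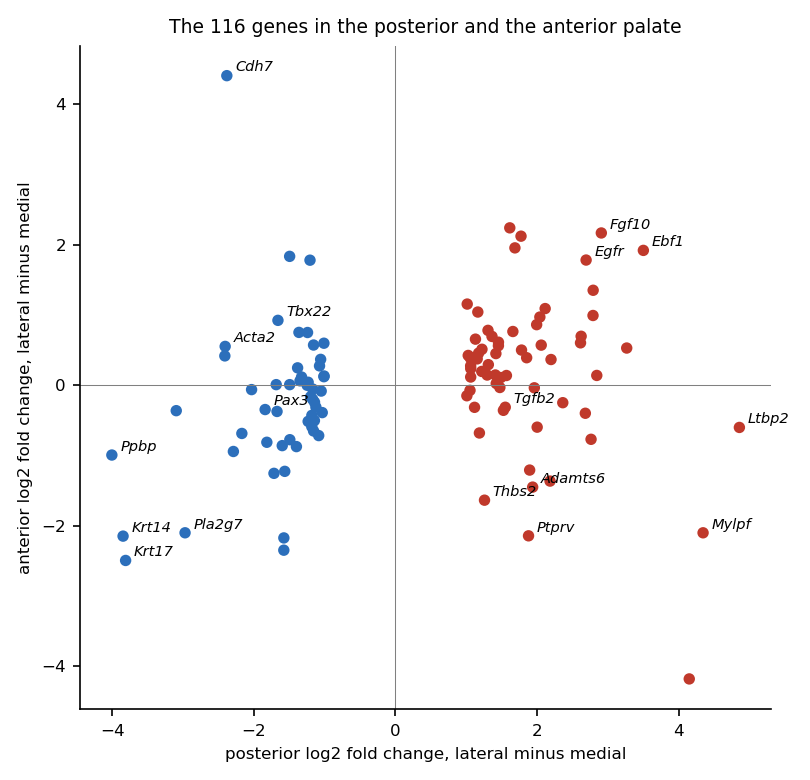
Log2 difference, lateral minus medial, of the 116 called genes in the posterior palate (horizontal axis) and in the anterior palate (vertical axis), red for higher in posterior lateral and blue for higher in posterior medial. Of the points, 76 lie in the quadrants of equal direction, and Thbs2, at 1.26 and -1.64, lies in the quadrant of opposite direction.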

How the data were processed

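The authors deposited RPKM values for 37406 genes in 25 libraries, made with GeneSpring from single-end reads of 50 bases after NuGEN amplification and Nextera tagmentation, with duplicate reads and reads of more than 1 alignment removed. Amplification can thin out rare transcripts unevenly. The submitters' processing notes name TopHat and mm9. Compartments came from the labels and runs from alignment names. Depth was implied from ratios of low RPKM values, and counting error at 5 RPKM on 2000 bases was 13.0% to 20.7%.

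Values were tested as log2(RPKM + 0.1) with limma 3.58.1 (two-sided) in R 4.3.3, with Benjamini-Hochberg adjustment over 10324 genes. The interaction used 12 libraries and genes at 5 RPKM in at least 3 of them. Scripts were checked on simulated tables.

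Named genes are those the study named, the 12 largest calls in each direction with groups apart, called members and the 2 largest differences of each of 26 lists, and the clearest interactions. Members and lists were chosen with earlier results of these data known. Symbols absent from the table or on several rows (12 entries) were left out. The alternatives were other pseudocounts, minimums, scalings, limma settings, blocks and sets of libraries. Python 3.11.15, pandas 2.3.3 and matplotlib 3.10.9 were used.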

Additional observations from a re-analysis of the deposited data

Results flagged for a closer look

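Thbs2 differed between the posterior and the anterior palate in its lateral minus medial difference, by 2.90 on the log2 scale. The interaction was tested in limma and had an adjusted p of 0.0296, and this adjusted p was 0.0102 with quantile normalization, 0.0832 with no expression minimum and 0.216 with the replicate block. It was above 0.05 when any of 9 of the 12 libraries was left out (0.0577 to 0.188), all 6 anterior ones among them. All 3 posterior lateral libraries were above the 3 posterior medial ones, and all 3 anterior lateral libraries were below the 3 anterior medial ones.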

How the results depend on the processing

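At the study thresholds 116 genes were called. The count was 519 with no expression minimum (405 higher in lateral and 114 in medial), 73 at 10 RPKM, 222 with quantile normalization (99 higher in lateral and 123 in medial, against 64 and 52), 522 with 25 libraries in the fit (410 and 112), 231 with the 12 posterior ones, and 73 to 323 with 1 library left out (73 without lateral replicate 3, 48 in lateral against 74 in medial without lateral replicate 1, 249 and 323 without medial replicates 1 and 3). With array weights 94 were higher in lateral and 48 in medial. Added after seeing the data, a run term over 25 libraries gave 359 and the 24 libraries without medial replicate 2 gave 179. The labels give no pairing of lateral with medial libraries. Deviations from the group means correlated at 0.226, 0.036 and 0.277 between libraries of the same replicate number. Between libraries of different numbers the correlations ran from -0.259 to 0.097. The replicate block gave 155 genes at the thresholds, 0 after adjustment and 0 interactions.

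Adjusted p under 0.05 was reached by 0 genes, and by 2 with quantile normalization, 25 with 25 libraries, 5 with 12, 20 with 24, 1 with the run term, 1 with centring but no medial replicate 2, and 0 to 1 with 1 library left out (Gm1974 without medial replicate 2, listed at 0 in the other medial libraries). Interactions numbered 1, and 6 at a pseudocount of 1, 2 with quantile normalization, 0 with no expression minimum, and 0 to 9 with 1 library left out.

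Log2 differences that changed sign were all of genes that were not called, apart from Nrg3 (0.26 with the run term). With the run term they were 0.41 for Hbb-b1, 0.038 for Grem1, 0.20 for Ddit4 and 1.45 for Ier3. With quantile normalization they were -0.18 for Rgs5 and -0.15 for Gdf11, and with array weights -0.029 for Fabp7 and -0.64 for Gdf11. Without medial replicate 2, over 5 or 24 libraries, Eng was at -0.13, Gdf11 at -0.61, Rspo1 at -0.078 and Mcm2 at -0.28, and with centring -0.076, -0.56, -0.027 and -0.23, with Hbb-b1 at 0.033. Ier3 was at 0.42 on replicates 2 and 3 alone. With 1 library left out, Rgs5 ran from -0.19 to 1.96, Sox10 from -2.06 to 0.13, Ier3 from -1.47 to 0.26, Eng from -0.13 to 2.85, Gdf11 from -0.61 to 2.90, Rspo1 from -0.078 to 2.92 and Mcm2 from -0.28 to 1.57. The causes were not tested. Whether depth, 2.33 to 5.93 M reads, bears on the number of calls was not tested.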
